A study of Danio rerio with 12 samples.

Results

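Ribosome biogenesis factors are the proteins that transcribe, modify, cut and assemble ribosomal RNA in the nucleolus. They were taken here by gene symbol, from families of nucleolar names (nop, nol, utp, rrp and polr1) and 41 symbols named singly, such as fbl, dkc1, ncl and npm1a. Of the 6684 named genes on the arrays, 70 were members, measured by 120 probes. Of the 41 single symbols 38 were measured, and brix1, mphosph10 and wdr75 were not among the named genes. The current symbol differed from that on the array for 12 members, among them utp4 (cirh1a), gar1 (nola1), polr1f (twistnb) and polr1h (znrd1).

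RNA polymerase I transcribes the long precursor of the ribosomal RNAs. Small nucleolar ribonucleoproteins (snoRNPs) of the box C/D and box H/ACA classes then modify it, and the small subunit processome and the large subunit assembly factors fold and cut it while ribosomal proteins are added. A liver cell invests much of its transcription in ribosomes, and the output of this pathway is known to follow nutrients and growth signals. The roles named for single genes are those known from yeast and mammals.

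The livers came from adult wild-type zebrafish of the AB strain, which for 28 days ate a feed with 25% maize or a feed with 0% maize. Maize replaced wheat in the feed, and the feed with 0% maize held 25% wheat instead. Each comparison of the diets is therefore also one of maize with wheat. Both diets were supplemented with Artemia nauplii. The 4 groups were females on 25% maize, females on 0% maize, males on 25% maize and males on 0% maize, with 3 liver pools each. A pool held the livers of the fish of 1 sex from 1 tank, and 10 of each sex had been kept per tank. The spread between pools of 1 group is therefore between tanks and not between fish. If the replicate numbers name tanks, a female and a male pool of 1 diet with the same number shared a tank. The tissue label is liver, although in zebrafish pancreas cells lie within it. In such bulk tissue fewer cells of a type and less RNA per cell cannot be told apart.

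Each of the 12 pools was measured on 2 arrays, once in each dye, in a closed loop of 12 arrays with 1 pool of each diet on every array. A female and a male pool met on 10 arrays, while 2 female pools met on 1 array and 2 male pools on 1 array. The diet effect averaged over the sexes therefore drew on all arrays, and the diet effect within 1 sex leaned on the single arrays that join the diets. The median log ratio of an array lay between -0.05 and 0.04. Ratios were read as Cy5 over Cy3, which is likely but not stated, since all 470 values of 47 vitellogenin probes on the 10 arrays of both sexes had the sign that this reading needs. Levels are given per pool as log2 values relative to the mean of the 12 pools, and since neighbouring pools share array error their order is a description without a test. Log ratios carry no absolute level, so that neither levels of different genes nor the absence of a marker can be read from them.

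The ribosome biogenesis factors were lower on 25% maize. Of the 70 members 29 fell and 0 rose when 25% maize was set against 0% maize over both sexes, at an adjusted p under 0.05 from limma with Benjamini-Hochberg adjustment over all 6684 genes. This was 41.4% of the members, beside 2.56% of all genes that were lower and 2% that were higher. The change was negative in 67 of the 70 members, beside 3500 of all 6684 genes. The median change of the members was -0.33 on the log2 scale, beside -0.01 over all genes. The median ratio of 25% over 0% maize was 0.794 for the members and 0.995 for all genes. Changes of single members ran from -0.68 to 0.07. Without adjustment 57 members had a p under 0.05, all of them lower, beside 16.9% of all genes in either direction. No test of the list as a whole was run. The list was chosen with earlier results of these data known, so that these shares describe it and are no independent support.

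The count of members that fell depended on which pools were in the fit, and each pool left out took its 2 arrays with it. It ran from 10 to 35 as each of the 12 pools was left out in turn. It was 18 without replicate 2 and 10 without replicate 4 of the females on 25% maize, and 14 without replicate 3 of the males on 25% maize. It was 11 without replicate 1 of the females on 0% maize and 10 without replicate 1 of the males on 0% maize. The pools behind the counts of 10, 11 and 14 were those on the single arrays that join the diets within a sex. The part of the lost arrays in these counts was not tested. In these fits between 0.539% and 3.73% of all genes were lower, between 67 and 70 members had a negative change, and the median change of the members ran from -0.36 to -0.30. With every array scaled to one spread, 0 members and 0 genes in all passed, with a median change of -0.29. That setting gives the arrays of 1 sex the same spread as the arrays of both sexes. It let 783 genes pass within females and 1721 within males, where the main fit had 89 and 2.

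**Figure D1:**
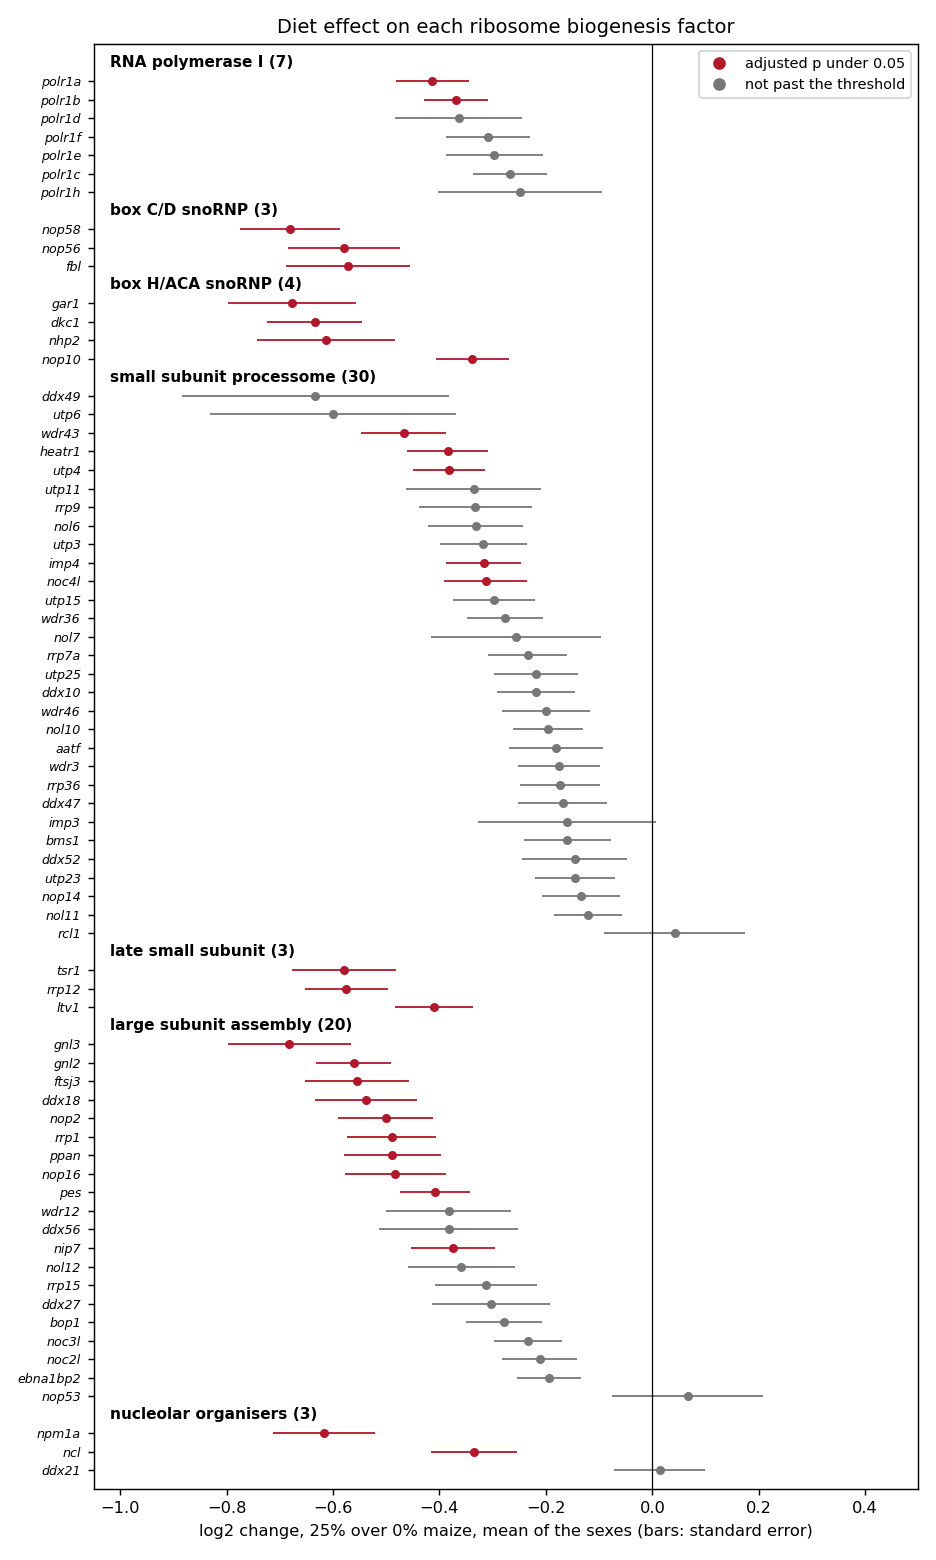
Log2 change of each of the 70 members on 25% maize over 0% maize, averaged over the sexes, by step of ribosome biogenesis. Points are the estimates of the limma fit, bars are standard errors, and red marks the 29 members with an adjusted p under 0.05. All 3 or 4 members of the box C/D, box H/ACA and late small subunit steps are red, and only rcl1, nop53 and ddx21 lie right of 0.

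All 7 measured subunits of RNA polymerase I had a negative change, with a median of -0.31, and 2 of them fell. Beside this count and those of the steps below stand 2.56% of all genes that fell and 3500 of 6684 with a negative change. Pool values are given in each step for the 2 members of smallest p for the diet. Their separation between the diets follows in part from that choice. Polr1b, the second-largest subunit, had levels of 0.09, 0.25 and 0.18 in females on 25% maize, against 0.67, 0.74 and 0.73 in females on 0% maize. In males its levels were -0.66, -0.41 and -0.55 on 25% maize, against -0.33, -0.32 and -0.38 on 0% maize. The diets did not overlap in either sex. Polr1b fell by 0.37 in log2 units (SE, the standard error, 0.06, adjusted p = 0.0083, limma). Polr1a, the largest subunit, which forms the catalytic centre together with polr1b, had levels of 0.08, 0.18 and 0.13 in females on 25% maize, against 0.65, 0.35 and 0.34 in females on 0% maize. Male levels of polr1a were -0.60, -0.56 and -0.46 on 25% maize, against 0.03, -0.09 and -0.04 on 0% maize. It fell by 0.41 (SE 0.07, adjusted p = 0.0083, limma), again without overlap within a sex. The value of polr1a is the mean of 2 probes at -0.68 and -0.15, of which only the first passed singly. Polr1f and polr1c, a subunit shared with RNA polymerase III, had changes of -0.31 and -0.27 with adjusted p of 0.0523 each, just short of passing. The remaining polr1d, polr1e and polr1h changed by -0.36, -0.30 and -0.25 with standard errors of 0.12, 0.09 and 0.15.

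All 7 members placed in the snoRNP steps fell, 3 of 3 in the box C/D step and 4 of 4 in the box H/ACA step. Rrp9, a protein of the U3 snoRNP, was counted with the small subunit processome, and its change of -0.33 did not pass. The box C/D particle carries fbl, the methyltransferase that modifies riboses of ribosomal RNA, on a core of nop56 and nop58. Nop58 had levels of 0.10, 0.18 and 0.59 in females on 25% maize, against 0.78, 0.83 and 0.61 in females on 0% maize. In males nop58 lay at -0.94, -0.99 and -0.99 on 25% maize, against -0.29, 0.16 and -0.03 on 0% maize. The diets were furthest apart in males, and in females the highest pool on 25% maize came close to the lowest on 0% maize. Nop58 fell by 0.68 (SE 0.09, adjusted p = 0.0049, limma), to a ratio of 0.624. Nop56 lay at -0.27, 0.20 and 0.47 in females on 25% maize, against 0.86, 0.70 and 0.72 in females on 0% maize. Its male levels were -0.53, -0.94 and -0.67 on 25% maize, against -0.17, -0.21 and -0.16 on 0% maize. The pools on 25% maize were the more scattered ones in both sexes, without reaching those on 0% maize. Nop56 fell by 0.58 (SE 0.11, adjusted p = 0.0113) and fbl by 0.57 (SE 0.12, adjusted p = 0.0192), both from limma.

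The box H/ACA particle turns uridines of ribosomal RNA into pseudouridines. Dkc1 is its pseudouridine synthase, and gar1, nhp2 and nop10 are the other core proteins. Dkc1 levels were 0.11, 0.36 and 0.43 in females on 25% maize, against 1.02, 0.88 and 0.79 in females on 0% maize. In males dkc1 lay at -1.06, -0.80 and -0.94 on 25% maize, against -0.32, -0.03 and -0.43 on 0% maize. The 4 groups formed 4 separate steps, with no overlap between any of them. Dkc1 fell by 0.63 (SE 0.09, adjusted p = 0.0051, limma), with 4 of 4 probes past the threshold in a fit over single probes. Gar1 was at 0.47, 0.79 and 0.87 in females on 25% maize, against 1.65, 0.89 and 1.30 in females on 0% maize. Male levels of gar1 were -1.44, -1.20 and -1.51 on 25% maize, against -0.82, -0.53 and -0.46 on 0% maize. Here too the 4 groups did not overlap, although the highest female pool on 25% maize nearly met the lowest on 0% maize. Gar1 fell by 0.68 (SE 0.12, adjusted p = 0.0102), nhp2 by 0.61 (SE 0.13, adjusted p = 0.0227) and nop10 by 0.34 (SE 0.07, adjusted p = 0.0190), all from limma. The 2 probes of nop10 changed by -0.54 and -0.14, and only the first passed singly.

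The small subunit processome, which cuts the precursor on the side of the small subunit, had the lowest share of changed members. The steps so compared held from 3 to 30 members. In the processome 29 of the 30 measured members had a negative change, the median change was -0.23, and 5 members fell. Of these, wdr43, utp4 and heatr1 belong to the UTP-A complex that binds the precursor first, and the others were imp4 of the Mpp10 complex and noc4l. Wdr43 lay at -0.07, 0.32 and 0.28 in females on 25% maize, against 0.65, 0.70 and 0.38 in females on 0% maize. In males wdr43 was at -0.52, -0.61 and -0.80 on 25% maize, against -0.18, -0.09 and -0.06 on 0% maize. The male diets stood well apart, and the female diets did so by a narrow margin. Wdr43 fell by 0.47 (SE 0.08, adjusted p = 0.0091, limma). Utp4 had levels of 0.15, 0.25 and 0.20 in females on 25% maize, against 0.79, 0.72 and 0.56 in females on 0% maize. Its male levels were -0.42, -0.70 and -0.63 on 25% maize, against -0.21, -0.32 and -0.39 on 0% maize. The female diets were clearly separate, and in males the highest pool on 25% maize lay just below the lowest on 0% maize. Utp4 fell by 0.38 (SE 0.07, adjusted p = 0.0099), heatr1 by 0.38 (SE 0.08, adjusted p = 0.0175) and imp4 by 0.32 (SE 0.07, adjusted p = 0.0296), all from limma. Utp15, another UTP-A member, changed by -0.30 with an adjusted p of 0.0530 from limma. Rcl1, also a member of this step, changed by 0.04 (SE 0.13).

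The processome also held the members that varied most between pools of 1 group. Ddx49, a helicase, and utp6, of the UTP-B complex, had the largest negative changes of the step, at -0.63 and -0.60, and neither passed the test (adjusted p = 0.211 and 0.196, limma). Their standard errors were 0.25 and 0.23, and their standard deviations within groups 0.598 and 0.491, beside a median of 0.16 over the members and 0.187 over all genes. Each is measured by 1 probe.

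The 3 late factors of the small subunit all fell. They act after the processome has been dismantled, rrp12 in the export of both subunits, tsr1 as a GTPase-like factor and ltv1 in the export and last maturation. Rrp12 lay at 0.06, 0.0036 and 0.09 in females on 25% maize, against 0.44, 0.78 and 0.53 in females on 0% maize. In males rrp12 was at -0.73, -0.43 and -0.72 on 25% maize, against 0.10, 0.02 and -0.14 on 0% maize. Females on 25% maize thus sat near the males on 0% maize, and neither sex overlapped between its diets. Rrp12 fell by 0.57 (SE 0.08, adjusted p = 0.0046, limma). Tsr1 had levels of 0.11, -0.04 and 0.41 in females on 25% maize, against 0.72, 0.89 and 0.58 in females on 0% maize. Its male levels were -0.97, -0.61 and -0.63 on 25% maize, against -0.03, -0.27 and -0.15 on 0% maize. The diets again did not overlap within a sex. Tsr1 fell by 0.58 (SE 0.10, adjusted p = 0.0088) and ltv1 by 0.41 (SE 0.07, adjusted p = 0.0102), both from limma.

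**Figure D2:**
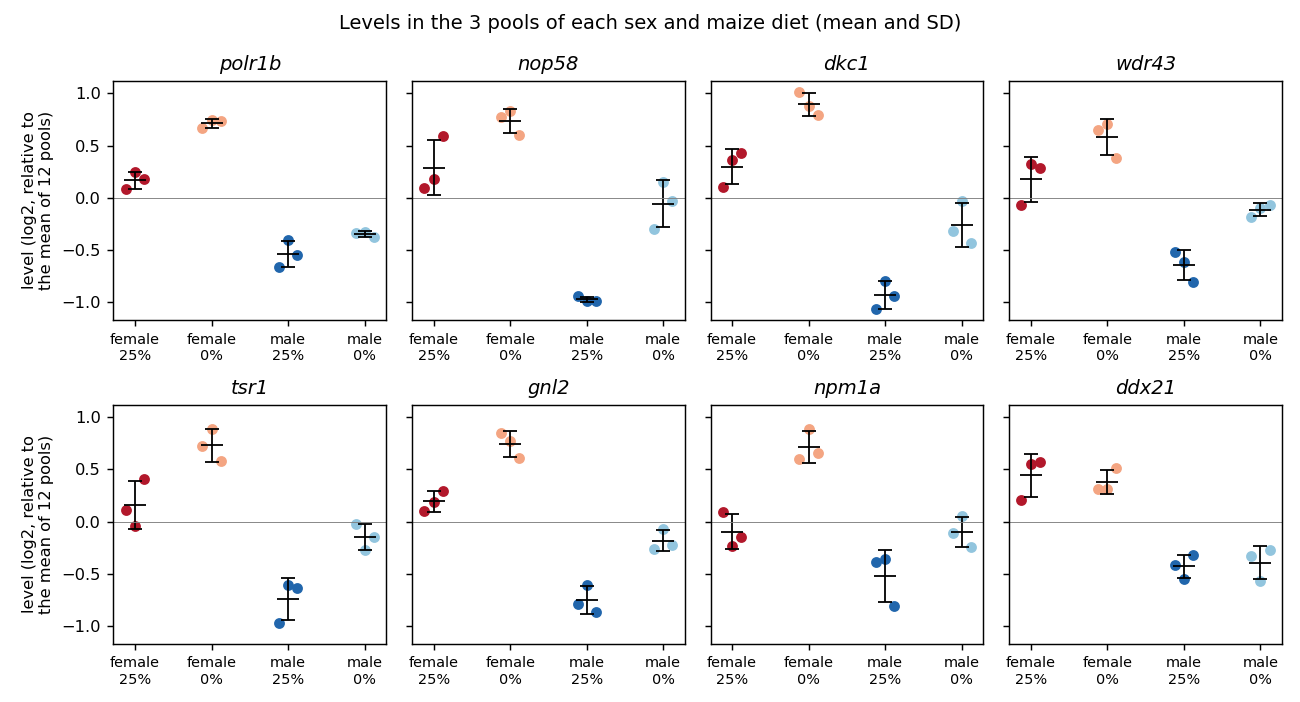
Levels of 8 members in the 3 pools of each sex and diet, as log2 values relative to the mean of the 12 pools, with the mean and SD of each group. All but ddx21 were shown for being among the 2 members of smallest p for the diet in their step. In polr1b, nop58, dkc1, wdr43, tsr1 and gnl2 the pools on 25% maize lie below those on 0% maize in both sexes, and npm1a does so without overlap in both sexes too. The diets overlap in both sexes in ddx21. It lies higher in females as the mean of 3 probes, whose differences between the sexes were -0.52, 1.45 and 1.53.

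Of the 20 large subunit assembly factors 10 fell, with a median change of -0.38 over the step. They were the GTPases gnl2 and gnl3 (nucleostemin), the helicase ddx18, the methyltransferases nop2 and ftsj3, and pes, rrp1, ppan, nop16 and nip7. Gnl2 had levels of 0.10, 0.18 and 0.30 in females on 25% maize, against 0.85, 0.77 and 0.61 in females on 0% maize. In males gnl2 lay at -0.79, -0.61 and -0.87 on 25% maize, against -0.26, -0.07 and -0.22 on 0% maize. The groups did not overlap, and the change was nearly equal in females and males, at -0.55 and -0.58. Gnl2 had the smallest adjusted p of all members, with a fall of 0.56 (SE 0.07, adjusted p = 0.0033, limma). Pes forms the PeBoW complex with bop1 and wdr12, which is needed for cutting on the side of the large subunit. Pes levels were 0.08, 0.07 and 0.21 in females on 25% maize, against 0.50, 0.62 and 0.50 in females on 0% maize. In males pes was at -0.58, -0.34 and -0.66 on 25% maize, against -0.12, -0.13 and -0.15 on 0% maize. The males on 0% maize were tightly grouped and the males on 25% maize all lay below them. Pes fell by 0.41 (SE 0.07, adjusted p = 0.0078, limma), while bop1 and wdr12 had changes of -0.28 and -0.38 with adjusted p of 0.0510 and 0.0949. Gnl3 fell by 0.68 (SE 0.12, adjusted p = 0.0088) and rrp1 by 0.49 (SE 0.08, adjusted p = 0.0088), both from limma. Nop53 had a change of 0.07 (SE 0.14), the highest of all members.

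Among the nucleolar organisers, npm1a (nucleophosmin) and ncl (nucleolin) fell. Npm1a lay at 0.09, -0.23 and -0.14 in females on 25% maize, against 0.60, 0.89 and 0.66 in females on 0% maize. In males npm1a was at -0.39, -0.36 and -0.81 on 25% maize, against -0.11, 0.05 and -0.24 on 0% maize. Its female diets were far apart and its male diets separated by a small gap. Npm1a fell by 0.62 (SE 0.10, adjusted p = 0.0068, limma), to a ratio of 0.652. Ncl had levels of -0.30, 0.03 and -0.13 in females on 25% maize, against 0.21, 0.39 and 0.26 in females on 0% maize. Its male levels were 0.03, -0.21 and -0.43 on 25% maize, against 0.01, 0.06 and 0.09 on 0% maize, so that the male diets overlapped. Ncl fell by 0.34 (SE 0.08, adjusted p = 0.0402, limma), with none of its 5 probes past the threshold singly. Ddx21, a helicase of ribosomal gene transcription and snoRNPs, had a change of 0.01 (SE 0.08, adjusted p = 0.977, limma).

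The steps could be read pool by pool. Averaged over the 70 members, the levels were 0.11, 0.30 and 0.29 in females on 25% maize, against 0.71, 0.55 and 0.62 in females on 0% maize. In males they were -0.60, -0.48 and -0.66 on 25% maize, against -0.29, -0.30 and -0.25 on 0% maize. The 4 groups did not overlap, and the mean of 25% maize differed from that of 0% maize by -0.39 in females and by -0.30 in males. The box C/D and box H/ACA means differed more between the diets in males (-0.77 and -0.65) than in females (-0.45 and -0.48), and the processome mean more in females (-0.35) than in males (-0.17). These differences between the sexes were not tested for the steps.

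**Figure D3:**
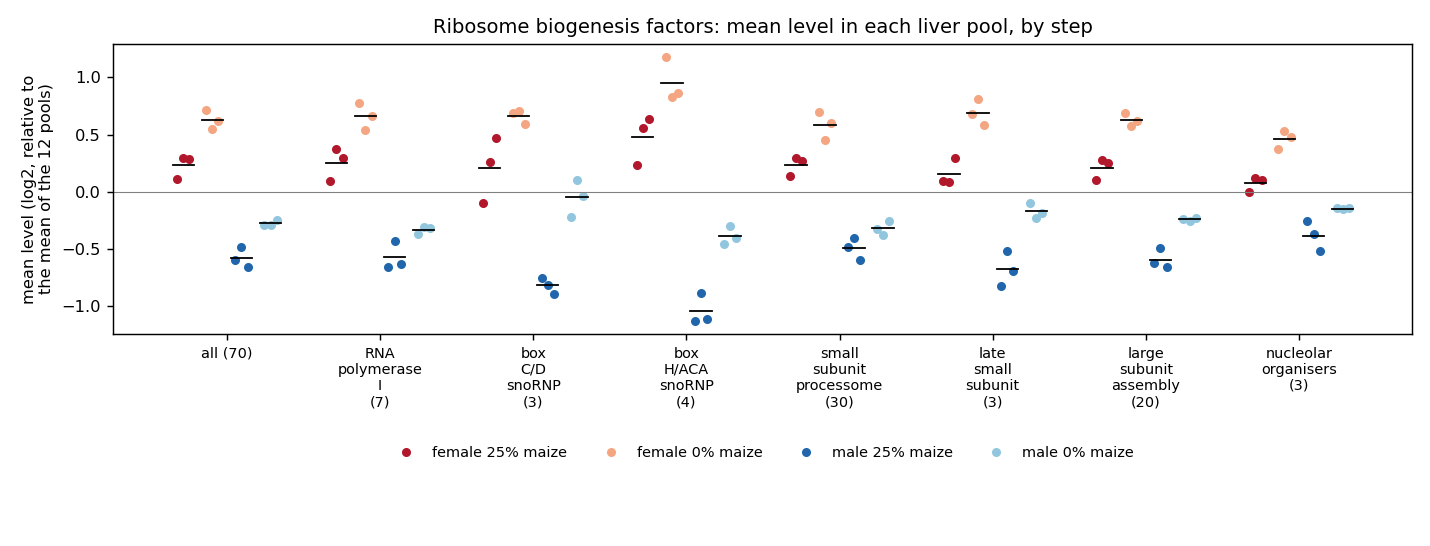
Mean level of the members of each step in each of the 12 liver pools, as log2 values relative to the mean of the pools. Points are pools, bars are group means, and numbers in parentheses are members. Over all 70 members the pools on 25% maize lie below those on 0% maize of the same sex, and all 6 female pools lie above all 6 male pools.

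Pool by pool, 49 members (70%) had all 3 female pools on 25% maize below all 3 on 0% maize, beside 9.95% of all genes. In males 31 members (44.3%) were so separated, beside 10.6% of all genes. Both sexes were separated in 22 members (31.4%), beside 1.94% of all genes. In no member did the pools on 25% maize lie above those on 0% maize without overlap in either sex, beside 11.8% of all genes in females, 7.9% in males and 1.27% in both.

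Within females alone, 5 members fell and 0 rose at an adjusted p under 0.05 from limma, beside 0.359% of all genes that were lower and 0.972% that were higher. They were polr1b (-0.54, adjusted p = 0.0366), gnl2 (-0.55, adjusted p = 0.0470), gnl3 (-0.94, adjusted p = 0.0423), ddx18 (-0.77, adjusted p = 0.0423) and npm1a (-0.78, adjusted p = 0.0423). This count ran from 0 to 12 under other settings of the model, and 162 genes in all passed in the fit with 12. It ran from 0 to 15 when single pools were left out, and 377 genes in all passed in the fit with 15. In the fits without a pool that gave 0 members, between 0 and 31 genes in all passed. Within males 0 members passed in either direction, beside 0.015% of all genes lower and 0.015% higher. The unadjusted p was under 0.05 in 45 members in females and in 29 members in males, all of them lower, beside 15.5% and 11.2% of all genes in either direction. The median change was -0.40 in females and -0.21 in males, and 62 members had a negative change in both sexes, beside 24.3% of all genes.

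Whether the diet effect differed between the sexes was tested gene by gene. No member passed (0% of all genes passed), and 7 members had an unadjusted p under 0.05, beside 9.38% of all genes. The 3 with the smallest p were utp6, ddx49 and ddx52, with adjusted p of 0.215, 0.266 and 0.440 from limma. Utp6 was at 1.61, 1.36 and 0.64 in females on 25% maize, against 1.19, 0.03 and 0.26 in females on 0% maize. In males utp6 lay at -1.56, -1.81 and -2.05 on 25% maize, against 0.33, 0.48 and -0.48 on 0% maize. Its male diets were the furthest apart of any member, while its female diets overlapped. Ddx49 had levels of -0.64, -0.88 and 0.44 in females on 25% maize, against 2.14, 1.23 and 1.04 in females on 0% maize. In males ddx49 was at 0.15, -0.44 and -0.53 on 25% maize, against -0.68, -1.57 and -0.26 on 0% maize, and here the female diets were the ones that stood apart. Ddx52, also a helicase of the processome, had changes of -0.48 in females and 0.19 in males.

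**Figure D4:**
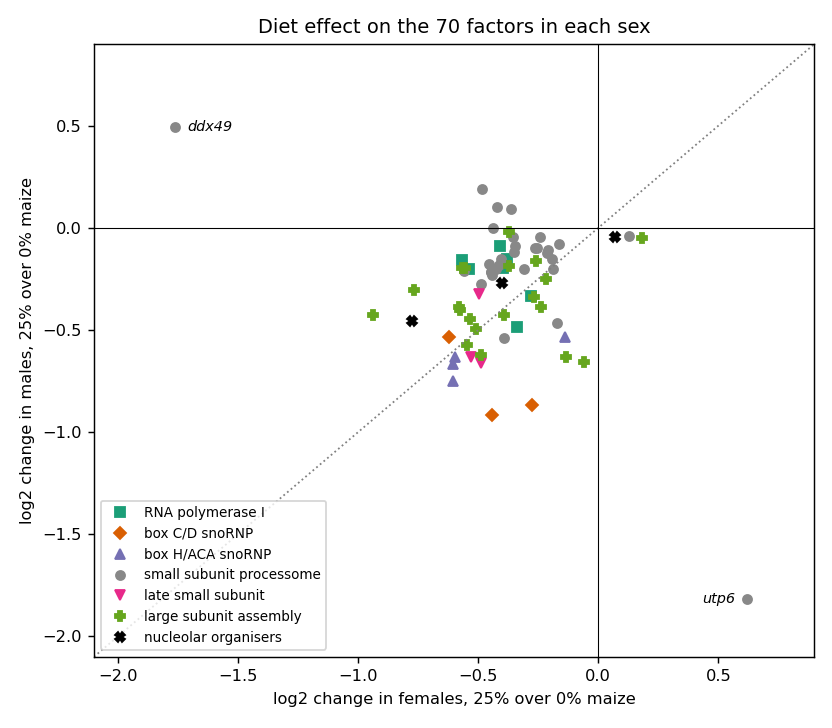
Log2 change of each member on 25% maize over 0% maize in females (horizontal axis) and in males (vertical axis), with the step as symbol and the dotted line at equal change. Of the 70 members 62 lie in the lower left part, where both changes are negative, and the 2 points far from the line are ddx49 and utp6.

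Females had higher levels of the members than males on both diets. Over both diets 64 of the 70 members (91.4%) were higher and 0 were lower in females at an adjusted p under 0.05 from limma, beside 38.2% of all genes that were higher and 31.9% that were lower. The median difference was 0.78 on the log2 scale, a ratio of 1.71 of females over males, beside 0.05 and 1.04 over all genes. On 25% maize 56 members (80%) were higher in females, beside 24% of all genes that were higher and 17% that were lower, and on 0% maize 60 members (85.7%), beside 31.3% and 25.9%. No member passed as lower in females on either diet. The 6 members that did not pass over both diets were ddx27, ncl, ddx10, wdr3, nop14 and rcl1.

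The 5 members with the smallest p between the sexes were utp15, bop1, rrp9, gar1 and ddx18. Utp15 had levels of 0.41, 0.67 and 0.63 in females on 25% maize and 1.14, 0.78 and 0.99 in females on 0% maize, against -0.94, -0.74 and -0.92 in males on 25% maize and -0.73, -0.71 and -0.57 in males on 0% maize. It was higher in females by 1.52 (SE 0.08, adjusted p = 1.2e-07, limma), and every female pool lay above every male pool. Rrp9, a protein of the U3 snoRNP that guides the first cuts of the precursor, was higher by 1.85 (SE 0.11, adjusted p = 2.0e-07, limma). The differences were 1.26 for bop1, 1.96 for gar1 and 1.46 for ddx18. The largest difference, 2.31 for imp3 of the Mpp10 complex, was singled out after its values were seen, and its 2 probes gave 0.68 and 3.94. In ddx21 the difference of 0.82 was the mean of 3 probes at -0.52, 1.45 and 1.53. Of the 35 members with several probes, 31 were higher in females by every probe, and in 9 the probes lay over 1 log2 unit apart.

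The 2 effects gave the members a common order of groups. In 58 members (82.9%) males on 25% maize had the lowest group mean, followed upwards by males on 0% maize, females on 25% maize and females on 0% maize, beside 15% of all genes. In 12 members (17.1%) the pools followed this order without any overlap, beside 0.658% of all genes. These were polr1a, polr1b, dkc1, gar1, nhp2, utp4, utp15, ltv1, pes, gnl2, noc3l and ppan. In polr1a, dkc1 and ppan the probes lay over 1 log2 unit apart in the difference between the sexes. In 0 members did all 6 pools on 25% maize lie below all 6 on 0% maize, beside 0.359% of all genes.

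The probes of a member mostly went the same way between the diets. Of the 120 probes 114 had a negative change on 25% maize, 50 fell and 0 rose when probes were fitted singly. The fit behind these counts used the variance ratio of the probes, 2.91. In another probe fit, with the variance ratio of the genes, 3.59, 413 of all 12275 probes passed in either direction. The shares of all probes that fell or had a negative change in the first fit were not counted, so the 50 and the 114 have no matching share. In 33 of the 35 members with several probes all probes were negative. Of the 29 members that fell, 12 had 1 probe, 10 had every one of several probes past the threshold, and 2 members, ncl among them, had no probe past it.

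Other genes of ribosome production were set beside the members. Of a list of 113 further genes of the pathway 80 were measured, and of these 15 fell and 0 rose on 25% maize (limma, adjusted over all genes, of which 2.56% were lower), with a median change of -0.22. The 4 with the smallest p were nolc1, a chaperone of snoRNPs, lyar, pdcd11, a large processome protein, and mybbp1a. They fell by 0.40, 0.39, 0.35 and 0.43, with standard errors of 0.06, 0.06, 0.06 and 0.07. Between the sexes 68 of the 80 were higher and 1, sbds, was lower in females, beside 38.2% and 31.9% of all genes. Of 78 genes taken by their symbols as cytosolic ribosomal proteins 1 fell and 0 rose on 25% maize. Their median change was -0.0007, beside -0.33 for the biogenesis factors. The gene that fell was rpl7l1, a relative of a ribosomal protein, by 0.54 (SE 0.13, adjusted p = 0.0373, limma). Of these 78, 73 were higher in females, again beside 38.2% of all genes, with a median difference of 0.71. Of 63 mitochondrial ribosomal protein genes 8 fell and 0 rose on 25% maize, beside the same 2.56% of all genes, with a median change of -0.14. The cytosolic ribosomal proteins thus shared the difference between the sexes, and 77 of them did not pass between the diets.

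**Figure D5:**
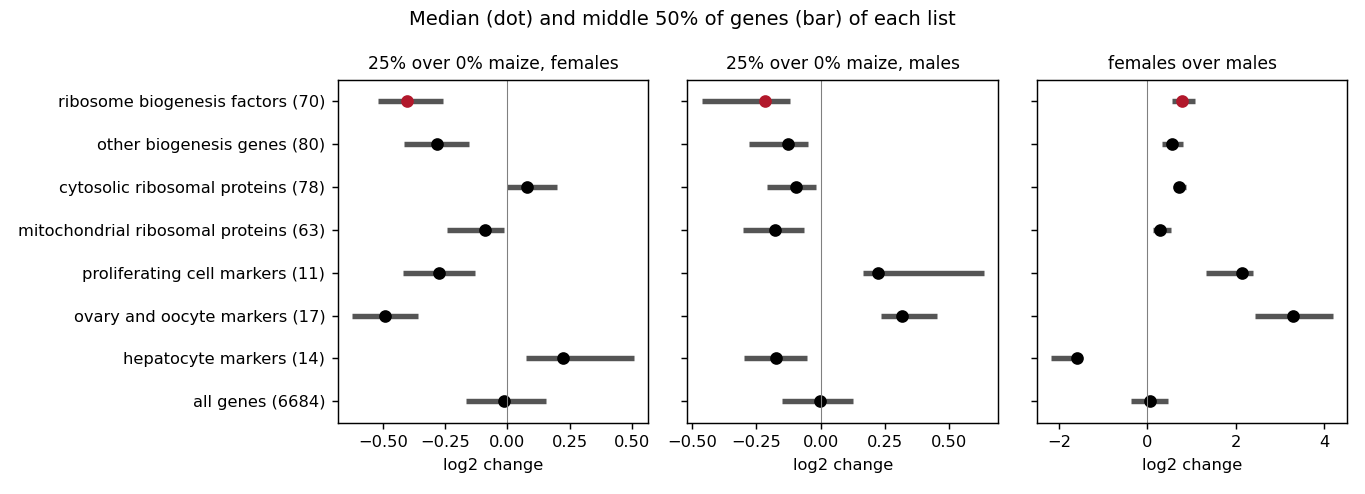
Median log2 change (dot) and the range of the middle 50% of genes (bar) for the members, other lists of ribosome genes, marker lists and all genes, with the number of measured genes in parentheses. The panels show 25% over 0% maize in females, the same in males, and females over males. The members have medians of -0.40, -0.21 and 0.78, the cytosolic ribosomal proteins 0.08, -0.10 and 0.71, and the ovary and oocyte markers -0.49, 0.32 and 3.29.

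Markers of other cells moved with some of these comparisons. Of 23 ovary and oocyte markers 17 were measured, and 16 of them were higher in females, with a median difference of 3.29. Their mean level ran from 1.22 to 1.69 in females on 25% maize, from 0.95 to 2.31 in females on 0% maize, from -1.71 to -1.07 in males on 25% maize and from -1.90 to -1.64 in males on 0% maize. All 11 measured markers of proliferating cells were higher in females, and 13 of 14 hepatocyte markers and 14 of 14 exocrine pancreas markers were lower in females. Also lower in females were 6 of 6 erythrocyte, 5 of 8 intestine and 4 of 6 islet markers, while 0 of 10 leukocyte markers passed. Of all genes 38.2% were higher and 31.9% lower in females. The part of these markers in the difference between the sexes was not tested. Between the diets no ovary or proliferation marker passed, and the median change of the ovary markers was -0.49 in females and 0.32 in males, where the members had -0.40 and -0.21. The intestine markers had medians of 1.28 in females and -0.77 in males, with 0 of 8 past the threshold, and the exocrine pancreas markers 0.43 and -0.28, with 0 of 14 past it. The hepatocyte markers had medians of 0.22 and -0.17, with 1 of 14, apobb.1, past the threshold in females and over both sexes. The part of these markers in the diet result was not tested beyond the 2 scores given last. Islet markers (medians 0.59 in females and 0.58 in males) and erythrocyte markers (0.27 and 0.34) were positive in both sexes, with 0 of 6 past the threshold in each list. The leukocyte markers, 0 of 10 past the threshold, had medians of -0.23 in females and -0.0003 in males. With the ovary score of each pool as a covariate 39 members fell on 25% maize and 450 genes in all passed in either direction. With the intestine score 27 members fell and 252 genes passed, beside 29 and 305 without a score. Both scores differed between the diets in opposite directions in the sexes (ovary -0.46 in females and 0.30 in males, intestine 1.19 and -0.78). They can therefore decide little about a change averaged over the sexes. The islet score (0.48 and 0.69) and the erythrocyte score (0.31 and 0.37) went the same way in both sexes. Their part was not tested.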

How the data were processed

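Liver RNA pools were compared on 2-colour Agilent arrays. Spots were quantified in GenePix Pro and processed in limma by the authors, who deposited a log ratio of the 2 dyes for every probe on each array, taken here as log2, which limma uses. Its base and direction, the background correction, the normalization and the probe filter were not stated in the sources used here.

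Of 12275 probes 10307 had 1 gene symbol, 1968 had none and 0 had several. Symbols were updated through RefSeq's GRCz12tu table by accession (9007 probes), current symbol (976) or synonym (317), and 7 were kept. The value of a gene is the mean of its probes.

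The model (limma 3.58.1, R 4.3.3) held the 4 groups and the dye. Ratios were first whitened for the correlation of arrays with a common pool. The ratio of pool variance to array variance was 3.59 by restricted maximum likelihood over all genes, and that of tanks 0. Female and male pools that may share a tank thus entered the main fit as independent. P-values were adjusted by Benjamini-Hochberg over 6684 genes. The fit was also run on ratios simulated from the same model, which cannot show whether that model suits the data. Pool levels were solved from the loop. The methods give 4 replicates per diet, and the labels name 12 pools, 3 of each group. The number of arrays limits the precision, and p-values measure the spread between pools.

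The members and gene lists were chosen with earlier results of these data known. Genes were named by rule: the 4 members of smallest p for the diet in each step, the 5 of smallest p between the sexes, the 3 of smallest p for the difference of the diet effects and the 3 with the smallest change, with pool values for the first 2 of each step. Alternatives varied how shared pools, tanks, replicate numbers and the dye entered the model, how arrays were scaled or weighted, the choice of probes, the threshold and the set of pools. The covariates of marker scores and the probe-based variance ratio were added after seeing the data. No probes could be filtered on brightness. Figures were drawn with matplotlib 3.10.9.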

Additional observations from a re-analysis of the deposited data

How the results depend on the processing

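The median change of the members on 25% maize stayed between -0.36 and -0.29 under all alternatives run. The count of members higher in females stayed between 59, with arrays scaled to one spread, and 66, with arrays taken as independent. In these fits 4089 and 5235 genes in all passed in either direction. The count was not computed with the ovary or the intestine score. Counts in parentheses are all features passing in either direction. The 29 members that fell (305) became 59 with arrays taken as independent (1145), 14 at a threshold of 0.01 (95) and 0 with arrays scaled to one spread (0), and 10 to 35 with single pools left out (78 to 495). They numbered 23 with the replicate number as a block (195). The cause was not tested.

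In females the 5 members (89) became 1 with arrays taken as independent (54), 12 with ordinary least squares on pool levels (162), 1 with the replicate block (1), 9 with array weights (138), 3 with one spread (783) or with the probe of largest spread (84), and 0 without the dye term (21), in the fit over probes (116), at 0.01 (0) and with the ovary (32) or the intestine score (0). Leaving out pools gave 0 to 15 in females (0 to 377) and 0 to 1 in males (0 to 17). It gave 0 to 1 for the difference between the sexes (0 to 6) and 62 to 64 between the sexes (4218 to 4928). In males the 0 members (2) became 4 with ordinary least squares (45), 2 with the replicate block, 1 lower and 1 higher (15), 7 with one spread (1721), 2 with array weights (36) and 4 with the ovary score (66). For the difference between the sexes the 0 (0) became 1 with the replicate block (4) and 7 with one spread (2025). The 6684 genes tested are the total behind these counts, other than in the fit over probes.

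The replicate numbers were not taken as pairs, since the labels name no shared batch and not every correlation passed 0.1. Pools of 1 sex with the same number deviated from their group means with correlations of 0.21 and 0.27 in females and -0.12 and 0.18 in males. These pairs join different diets, so they do not bear on female and male pools of 1 diet that may share a tank.

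Of 544 values of the 34 named genes under 16 settings that left out no pool, 468 kept their direction and side of the threshold, 55 no longer passed, 21 newly passed and 0 changed sign. With pools left out, ddx21 ran from -0.0345 to 0.0794, with 6 of 12 values below 0. Nop53 ran from -0.0214, without replicate 3 of the females on 25% maize, to 0.187. Rcl1 ran from -0.0477, without replicate 3 of the males on 0% maize, to 0.126, and was -0.0330 without replicate 3 of the females on 25% maize. None of these 3 genes passed.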

Other observations

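Of 12 genes of the Myc family and its partners, 3 were measured. Myc is a transcription factor known to act on ribosome biogenesis genes. Mycb, a zebrafish Myc, was at 0.89, 0.77 and 0.22 in females on 25% maize, against -0.37, -0.72 and -0.52 in females on 0% maize. In males mycb was at 0.41, 0.21 and 0.26 on 25% maize, against -0.04, -0.88 and -0.23 on 0% maize. All 6 pools on 25% maize lay above all 6 on 0% maize. The share of all genes with this separation was not counted, and mycb was the only 1 of the 3 that passed. Mycb rose by 0.92 (SE 0.15, adjusted p = 0.0083, limma), with 2 of 2 probes past the threshold, while the biogenesis factors had a median change of -0.33. Max and mycla had changes of -0.16 and -0.02 and did not pass. The relation between mycb and the members was not tested.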
